A study of Mus musculus with 20 samples.

Results

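Bone-marrow-derived macrophages (BMDM) sorted from 2 kinds of mouse glioma were compared across all genes. The 6 libraries are those whose titles name BMDM of GL261 tumours (80766, 80767 and 80769) and BMDM of GEMM tumours (68702, BB30101 and BB30105), out of 20 libraries in the series. The other 14 libraries are microglia (MG) of the same 6 tumours, MG of normal brain and monocytes from blood. Cells of C57BL/6 mice were sorted by flow cytometry and their polyadenylated RNA was sequenced after library preparation with a Smart-Seq kit. GEMM stands for a genetically engineered mouse model, in which DF1 cells, a chicken fibroblast line, carrying RCAS-PDGFB-HA and RCAS:shP53 were injected into the brain of Flt3:Cre Rosa26:mTmG mice at week 6 of age, where the labels give 5 to 6 weeks for intracranial injections in general. This gave tumours driven by the growth factor PDGFB with a hairpin against p53. GL261 is a mouse glioma line of C57BL/6 origin, and its samples carry the same protocol text as the GEMM samples, with the RCAS injection and the Flt3:Cre Rosa26:mTmG hosts, and no text of their own. How GL261 tumours were raised, and whether their hosts carried the reporter that the gate reads, could thus not be told from the labels. Flt3:Cre switches the mTmG reporter from red to green in the progeny of bone marrow progenitors, so the labels' gate for BMDM was Cd45+Cd11b+Ly6c-Ly6g-GFP+TdTomato-. The gate was thus set to leave out Ly6C-high monocytes and neutrophils, and it did not leave out dendritic cells that carry Cd11b.

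Macrophages of bone marrow origin enter gliomas from blood as monocytes and take on part of the resident microglia's gene use there. Interferon-gamma, made mainly by T and NK cells, switches on guanosine triphosphatases that attack intracellular pathogens, chemokines that draw T cells, and antigen presentation. Lipid uptake, lysosomal breakdown and cholesterol export through ApoE and the ABC transporters are the other large programme of tumour macrophages. The comparison asks how these programmes differ between cells of the same origin in tumours of different make.

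The table of deposited counts held 30048409 to 32913488 counts in the GEMM BMDM libraries and 18850626 to 22088979 in the GL261 BMDM libraries, so the ranges of depth do not overlap. Levels are CPM, counts scaled to a common library total by the trimmed mean of M values (TMM), and triplets of values run in the order 68702, BB30101, BB30105 for GEMM and 80766, 80767, 80769 for GL261. Log2 fold changes are GL261 over GEMM with their standard errors, n = 3 tumours per model, and a gene passed at a Benjamini-Hochberg adjusted p under 0.05 in edgeR's quasi-likelihood test. The largest component of variance over the 6 libraries (58.8%) separated the models, and the next (16.2%) set GL261 library 80769 apart. Libraries 68702 and 80769 stood apart in named genes. In GEMM library 68702 neutrophil markers summed to 2244 CPM, against 151 to 276 CPM in the other 5. In GL261 library 80769 border-associated macrophage markers summed to 4260 CPM, against 685 to 1509 CPM in the others. Counts were therefore repeated without both, a choice made after seeing the data.

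Both models held the RNA that defines macrophages. Csf1r, the receptor that macrophages need to live, stood at 3659, 2857 and 2744 CPM in GEMM and 2582, 2058 and 2839.8 CPM in GL261. Of the 9 measured genes fixed to define macrophages none passed in edgeR, and their summed level ran from 13931 to 27300 CPM in GEMM and from 14808 to 19545 CPM in GL261. Ptprc, which encodes Cd45, gave 1281, 1165 and 1180.3 CPM in GEMM against 1035, 803 and 476 CPM in GL261 (adjusted p = 0.128). Itgam, which encodes Cd11b, gave 579, 401 and 578 CPM in GEMM against 272, 517 and 226 CPM in GL261 (adjusted p = 0.279). Ly6c2, a gene of the Ly6C antigen used to exclude monocytes, was low in both models beside blood monocytes (1063 ± 193 CPM, SD, n = 5), and yet higher in GL261, at 73, 51.4 and 21.8 CPM against 5.42, 3.51 and 7.31 CPM (log2 fold change 3.17 ± 0.53, adjusted p = 0.000694). Ly6c1, the other gene of that antigen and a close paralog, gave 2.02, 1.37 and 4.12 CPM in GEMM against 16.2, 17.9 and 8.22 CPM in GL261 (log2 fold change 2.49 ± 0.63, adjusted p = 0.0097), a call lost without BB30101 (adjusted p = 0.0538). Itga4, the integrin subunit known from this field as a mark of recruited macrophages, did not pass, at 94.4, 102 and 117 CPM in GEMM against 87.6, 82.9 and 72 CPM in GL261 (adjusted p = 0.573).

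Of 15363 genes tested, 3027 (19.7%) passed, 1573 (10.2%) higher and 1454 (9.46%) lower in BMDM of GL261 tumours. At 2-fold or more 1189 (7.74%) passed as higher and 825 (5.37%) as lower. Without libraries 68702 and 80769 the counts were 874 higher and 1003 lower. The higher genes moved further, with a median log2 fold change of 2.14, against -1.21 for the lower genes and -0.04 over all genes tested. The GL261 libraries all lay above the GEMM libraries for 2783 genes (18.1%) and all below for 2844 (18.5%). Leaving out 1 library moved the higher count most for BB30101 (1045), and the lower count most for 80767 (822) and 68702 (936). The model and the depth of its libraries cannot be told apart by design. With the tumour libraries thinned to the same depth, and those of normal brain and blood left as they were, 1560 genes were higher and 1390 lower.

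**Figure D1:**
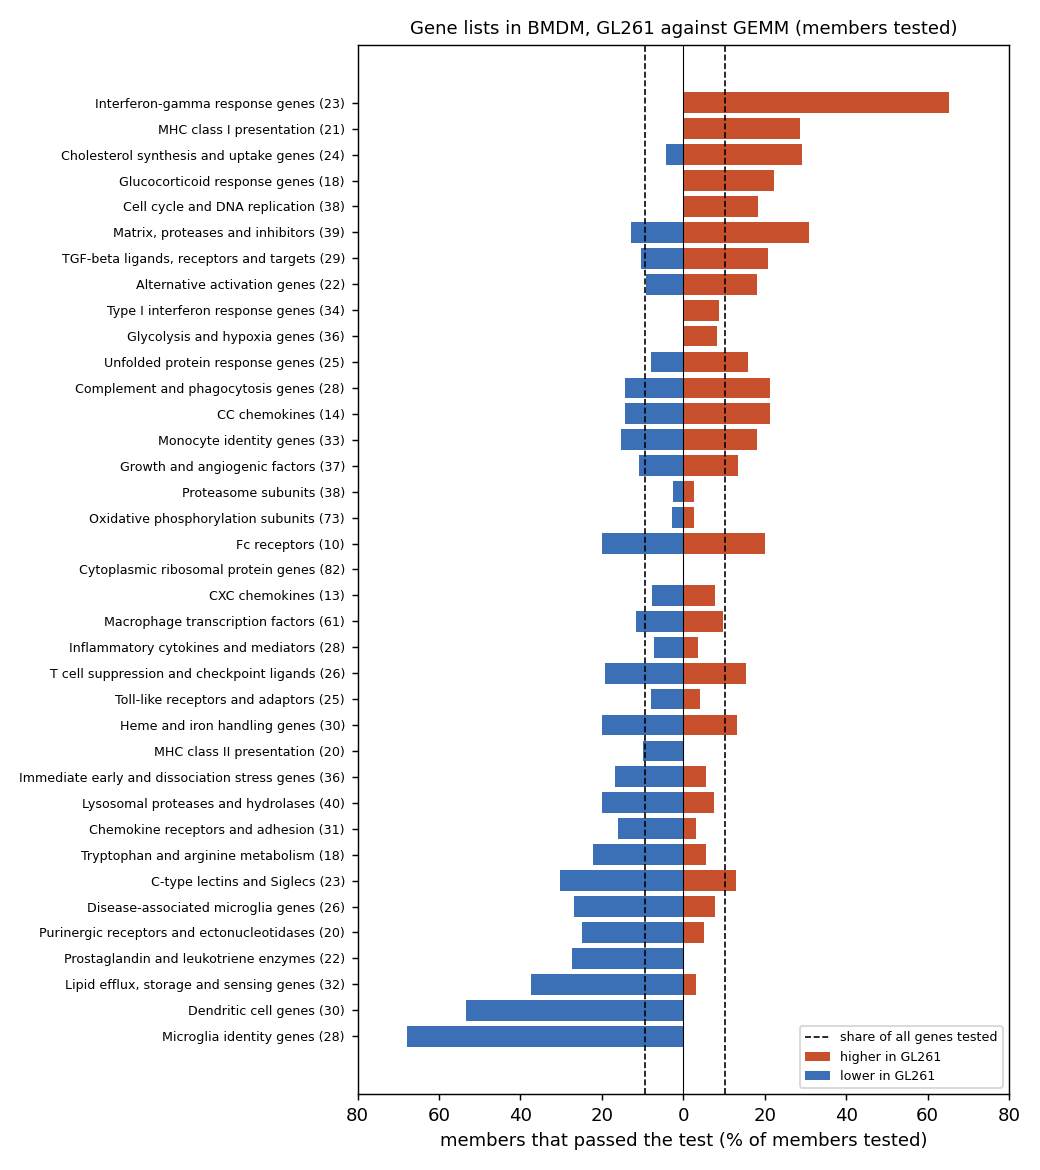
Share of each gene list's tested members that passed the test in BMDM, higher in GL261 to the right and lower to the left, in percent of members tested (number in brackets). Dashed lines mark the shares over all genes tested, 10.2% higher and 9.46% lower, and microglia identity, interferon-gamma and dendritic cell genes reach farthest past them.

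BMDM of GL261 tumours held more RNA of interferon-gamma response genes. Of 23 measured members 15 were higher, against 10.2% of all genes, with a median log2 fold change of 1.18. None was lower in edgeR, with 1 member lower at an unadjusted p under 0.05 and 1 by limma-voom. All except Cxcl9 and Nos2 encode immunity-related GTPases or guanylate-binding proteins, which coat and break up pathogen vacuoles. These families hold near-identical genes, among which reads can be split. Irgm1, a regulator of the GTPases, stood at 219.6, 128 and 178 CPM in GEMM and at 655, 630.5 and 358 CPM in GL261 (log2 fold change 1.65 ± 0.23, adjusted p = 0.000103). Gbp6 rose from 32.9, 22.6 and 19.2 CPM in GEMM to 202, 134 and 52.7 CPM in GL261 (log2 fold change 2.38 ± 0.39, adjusted p = 0.000387). In both genes every GL261 library lay above every GEMM library, and 80769 was the lowest of the 3. Iigp1, an effector GTPase, gave 29.9, 9.04 and 24.4 CPM in GEMM against 391, 246 and 63 CPM in GL261 (log2 fold change 3.47 ± 0.61, adjusted p = 0.000746), and its partner Igtp 96.8, 46.9 and 75 CPM in GEMM against 361, 325 and 149.6 CPM in GL261 (log2 fold change 1.93 ± 0.34, adjusted p = 0.000778). Cxcl9, a chemokine for T cells, was at 23.4, 18.8 and 62.8 CPM in GEMM and 285, 238 and 48.1 CPM in GL261 (log2 fold change 2.44 ± 0.69, adjusted p = 0.0192). There the groups overlap, since 80769 lies below BB30105.

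Library 80769 was the lowest of the 3 GL261 libraries in 14 of the 15 genes, and summed over the list it held 2314 CPM, beside 5817 CPM in 80766, 4422 CPM in 80767 and 2032 to 2561 CPM in GEMM. The exception was Nos2. The count of higher members was 14 without libraries 68702 and 80769, and fell to 8 without 68702, 7 without BB30101 and 7 without 80766. Fitted on the BMDM libraries alone, 7 of the members passed. Cxcl9 lost the call without 68702, BB30101, 80766 or 80767 (adjusted p from 0.0563 to 0.0887). Irf1, an early target gene of interferon-gamma, did not pass, at 239.7, 133 and 144 CPM in GEMM against 352, 257 and 160.4 CPM in GL261 (adjusted p = 0.314). Among type I interferon response genes 3 of 34 were higher (Herc6, Irf7 and Isg15) and none lower, with a median log2 fold change of 0.25. The higher share of 8.82% was near the 10.2% of all genes. Without 80769 or without both libraries that stood apart 8 members were higher, 1 without 80766 and 0 without BB30101 or 80767. T cell markers summed to 58.6 to 142 CPM in GEMM and 46.4 to 77.7 CPM in GL261, and NK cell markers to 115 to 353 CPM and 110.5 to 150.0 CPM, with 1 of 13 and 1 of 10 measured members lower. Neither panel had a member that was higher, and their part in the interferon-gamma result was not tested.

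**Figure D2:**
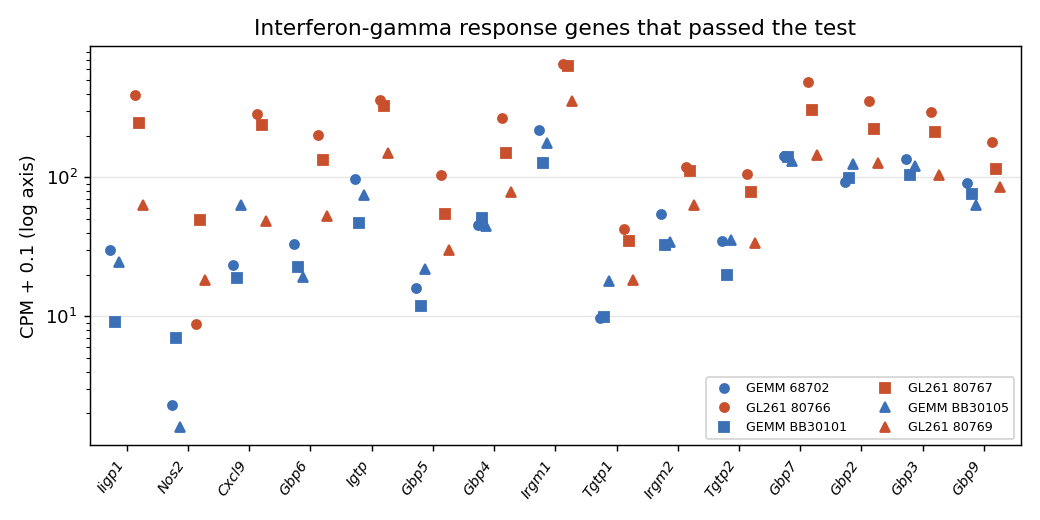
Level in each library (CPM plus 0.1, log axis) of the 15 interferon-gamma response genes that passed, GEMM BMDM in blue and GL261 BMDM in orange, with one symbol per tumour. Libraries 80766 and 80767 lie above all GEMM libraries for every gene drawn, and 80769 reaches down to the GEMM levels for several of them.

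Promoters of these genes are shown because they share a motif, the interferon-stimulated response element, to which Irf factors and complexes of Stat and Irf factors bind. Its core was searched as GAAA, any 2 bases and GAAA on both strands from 250 bases before to 50 bases from the start of each gene in RefSeq promoters of build GRCm38.p6. It was found in 9 of the 10 higher members with an entry there (90%), in 12 of 16 of the whole list (75%), and in 1079 of 27025 genes with a promoter (3.99%). Among all genes higher in GL261 the share was 5.08% and among all lower genes 3.15%. Capitals mark the core below, read from 5′ to 3′ on the gene's strand, for Irgm1 (chr11:48871371-48871670, minus strand), Igtp (chr11:58199306-58199605, plus strand) and Gbp2 (chr3:142620413-142620712, plus strand).
Irgm1: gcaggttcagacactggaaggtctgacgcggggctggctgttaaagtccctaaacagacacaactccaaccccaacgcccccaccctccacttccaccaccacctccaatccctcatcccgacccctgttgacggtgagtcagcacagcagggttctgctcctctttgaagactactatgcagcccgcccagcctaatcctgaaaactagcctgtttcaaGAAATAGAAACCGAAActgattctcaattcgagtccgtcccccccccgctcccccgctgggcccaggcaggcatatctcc
Igtp: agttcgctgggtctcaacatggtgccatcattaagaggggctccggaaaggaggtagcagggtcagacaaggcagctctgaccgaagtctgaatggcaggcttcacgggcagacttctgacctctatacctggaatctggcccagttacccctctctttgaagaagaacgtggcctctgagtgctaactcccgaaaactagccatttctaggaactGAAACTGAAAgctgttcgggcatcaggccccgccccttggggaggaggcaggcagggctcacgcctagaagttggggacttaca
Gbp2: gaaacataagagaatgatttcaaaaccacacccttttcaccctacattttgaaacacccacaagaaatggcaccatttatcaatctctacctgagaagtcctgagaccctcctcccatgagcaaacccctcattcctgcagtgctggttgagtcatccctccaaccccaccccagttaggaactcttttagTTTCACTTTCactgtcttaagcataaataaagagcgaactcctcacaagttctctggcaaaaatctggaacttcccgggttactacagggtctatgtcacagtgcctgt
Irgm1 carries 2 overlapping matches that begin 30 and 24 bases before the start, Igtp has 1 that begins 34 bases before it, and Gbp2 has 1 on the other strand that begins 59 bases before it. Gbp2, outside the rule for named genes and shown for its motif, gave 92, 98.9 and 124 CPM in GEMM and 353, 224 and 127 CPM in GL261 (log2 fold change 1.16 ± 0.33, adjusted p = 0.0193). It lost the call without 68702, BB30101 or 80766 (adjusted p from 0.0734 to 0.131). Cxcl9 is the higher member with an entry and no match. Other motifs were searched as well. The Stat site TTCNNNGAA, with N for any base, was in 6 of the 10 higher members (60%) and 8 of 16 of the list (50%). It was in 2582 of 27025 genes with a promoter (9.55%). A match describes the letters only.

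Of 20 measured MHC class II genes H2-Oa and H2-Ob were lower in GL261 (10%, beside 9.46% of all genes), a share near that of all genes, and none was higher. They encode H2-O, which restrains the loading of peptides onto class II. H2-Oa fell from 76.6, 163 and 127 CPM in GEMM to 19.7, 11.7 and 21.2 CPM in GL261 (log2 fold change -2.80 ± 0.59, adjusted p = 0.00288), and H2-Ob from 73, 139 and 113 CPM in GEMM to 16.8, 7.78 and 13 CPM in GL261 (log2 fold change -3.11 ± 0.61, adjusted p = 0.00173). The class II chain H2-Ab1 gave 7418, 13889 and 12490.1 CPM in GEMM against 16797, 12008 and 6653 CPM in GL261 (adjusted p = 0.91). The invariant chain Cd74 gave 17148, 28696 and 25496 CPM in GEMM against 26145, 20721 and 11442 CPM in GL261 (adjusted p = 0.606), so levels of these 2 overlapped between models. Ciita, the master regulator of class II, did not pass either, at 167, 307 and 265 CPM in GEMM against 204, 89.2 and 89.8 CPM in GL261 (adjusted p = 0.0952). For class I, 6 of 21 members were higher (28.6%, beside 10.2% of all genes) and none lower, among them the peptide transporter Tap1 (187, 199 and 220.4 CPM in GEMM against 522, 396 and 245 CPM in GL261, log2 fold change 0.94 ± 0.27, adjusted p = 0.0209). The class I count was 5 without both libraries that stood apart, and 0 without 80766, 1 without BB30101 or BB30105, and 2 without 68702 or 80767. Tap1 lost the call without any 1 of these 5 (adjusted p from 0.0526 to 0.117).

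Dendritic cell genes were lower in BMDM of GL261 tumours. Of 30 measured members 16 were lower, against 9.46% of all genes, none was higher in edgeR or at an unadjusted p under 0.05, and the median log2 fold change was -2.11. The count was 19 without libraries 68702 and 80769 and 10 without 80766. Cd24a, a surface protein of conventional dendritic cells, fell from 179, 106 and 53.7 CPM in GEMM to 3.88, 3.45 and 5.99 CPM in GL261 (log2 fold change -4.66 ± 0.60, adjusted p = 5e-05). The integrin gene Itgae, whose product Cd103 marks type 1 dendritic cells, fell from 121, 272 and 238 CPM in GEMM to 15.5, 6.7 and 17.5 CPM in GL261 (log2 fold change -3.99 ± 0.64, adjusted p = 0.000333). Irf4, the transcription factor of type 2 dendritic cells, fell from 22.9, 45.3 and 46.9 CPM in GEMM to 2.87, 1.39 and 6.69 CPM in GL261 (log2 fold change -3.38 ± 0.43, adjusted p = 5.11e-05). In each of the 3 the models did not overlap, and the lowest GEMM value was over 3 times the highest GL261 value. Within GEMM, 68702 was the highest library for Cd24a and the lowest for Itgae and Irf4. That library also held the most neutrophil marker RNA (2244 CPM), whose part in Cd24a was not tested.

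Chemokines of mature dendritic cells followed. Ccl22 was at 78.5, 142 and 207 CPM in GEMM and 17, 6.49 and 37.5 CPM in GL261 (log2 fold change -2.81 ± 0.58, adjusted p = 0.00254), and Ccl17, which shares its receptor, at 55.9, 283 and 188 CPM in GEMM and 7.71, 3.5 and 30.9 CPM in GL261 (log2 fold change -3.64 ± 0.87, adjusted p = 0.00718). Flt3, the receptor that dendritic cell precursors need, gave 102, 253 and 211 CPM in GEMM against 14.1, 10.6 and 54.3 CPM in GL261 (log2 fold change -2.84 ± 0.77, adjusted p = 0.0149). It is also the gene whose promoter drives the Cre of the reporter, and it was named after its values were seen. Flt3 lost the call without 80766 or 80767 (adjusted p = 0.064 and 0.0668). In GL261 the highest of the 3 libraries was 80769 for 14 of the 16 lower members. The panel of 10 conventional dendritic cell markers summed to 567, 1201 and 1155 CPM in GEMM and 147, 122 and 335 CPM in GL261, with 5 members lower, none higher and none at 0 in all 6 libraries. The 7 markers of migratory dendritic cells summed to 363, 920 and 1190 CPM against 164, 168 and 558 CPM, with 3 lower. In bulk libraries fewer dendritic cells in the sort and less of this RNA per cell cannot be told apart.

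**Figure D3:**
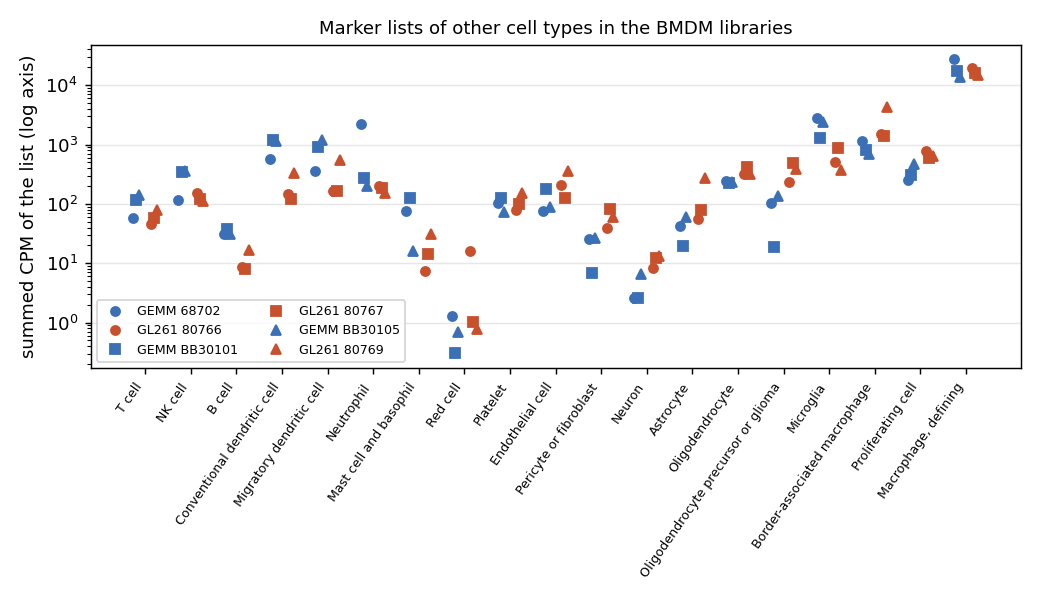
Summed level (CPM, log axis) of each panel of marker genes in the 6 BMDM libraries, GEMM in blue and GL261 in orange, with one symbol per tumour. Conventional dendritic cell, B cell and microglia panels lie lower in all 3 GL261 libraries, the glioma or precursor panel lies higher, and 68702 and 80769 stand apart in the neutrophil and border-associated macrophage panels.

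Genes known from microglia were lower in BMDM of GL261 tumours than in those of GEMM tumours. Of 28 measured microglia identity genes 19 were lower, against 9.46% of all genes, with a median log2 fold change of -1.68, and 17 were lower without libraries 68702 and 80769. None was higher in edgeR, with 1 higher at an unadjusted p under 0.05 and 1 by limma-voom. The Golgi protein gene Golm1 fell from 242, 155 and 283 CPM in GEMM to 34.7, 36.6 and 36.4 CPM in GL261 (log2 fold change -2.66 ± 0.31, adjusted p = 2.47e-05). Siglech, a lectin gene of microglia and of plasmacytoid dendritic cells, fell from 49.1, 50.9 and 182 CPM in GEMM to 1.97, 2.22 and 3.35 CPM in GL261 (log2 fold change -5.22 ± 0.68, adjusted p = 5.55e-05). Fcrls, an Fc receptor-like gene, fell from 1187, 418 and 709.8 CPM in GEMM to 47.1, 147 and 126 CPM in GL261 (log2 fold change -2.85 ± 0.53, adjusted p = 0.00108). The 3 GL261 libraries lay below all 3 GEMM libraries in each of these.

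P2ry12, the nucleotide receptor that guides microglial processes, was at 321, 167 and 311 CPM in GEMM and 53.3, 52.1 and 73.9 CPM in GL261 (log2 fold change -2.15 ± 0.45, adjusted p = 0.0027). Cx3cr1, the fractalkine receptor, fell from 1395, 602 and 748 CPM in GEMM to 193, 209.6 and 31.6 CPM in GL261 (log2 fold change -2.66 ± 0.61, adjusted p = 0.00536), with 80769 lowest. Sall1, a transcription factor of resident microglia, was low in both, at 5.89, 5.36 and 30.6 CPM in GEMM against 0.504, 0.979 and 1.12 CPM in GL261 (log2 fold change -3.99 ± 0.69, adjusted p = 0.000683). Tmem119, a microglial membrane protein gene, did not pass, at 312, 103 and 316 CPM in GEMM against 146, 374 and 42.3 CPM in GL261 (adjusted p = 0.72). All 19 lower members had a higher mean in MG than in BMDM of the GEMM tumours, P2ry12 at 1736 ± 614 CPM (SD, n = 3). In MG 19 of the 28 members were also lower in GL261 than in GEMM and 0 higher, beside 15.5% and 18.8% of all genes. The panel of 8 microglia markers summed to 2819, 1267 and 2386 CPM in GEMM BMDM and 502, 866 and 369 CPM in GL261 BMDM, with 7 lower and none at 0 throughout. Its part in the lower genes was not tested.

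Lipid export and storage genes ran lower in GL261. Of 32 members 12 were lower and 1, Nr1h3, was higher, against 9.46% and 10.2% of all genes. Without 68702 and 80769 the counts were 9 and 0. Apoc1 and Apoc4, apolipoproteins of the same gene cluster as Apoe, were under 1 CPM in every GL261 library. Apoc1 was at 112, 38.4 and 12 CPM in GEMM and 0.252, 0.825 and 0.929 CPM in GL261 (log2 fold change -6.32 ± 0.93, adjusted p = 0.00017), and Apoc4 at 77.6, 29.7 and 6.23 CPM in GEMM and 0.454, 0.67 and 0.976 CPM in GL261 (log2 fold change -5.74 ± 0.91, adjusted p = 0.000318). Abcg1, a cholesterol exporter under control of the liver X receptors, fell from 383, 142 and 173 CPM in GEMM to 58.8, 57.4 and 61.9 CPM in GL261 (log2 fold change -1.97 ± 0.34, adjusted p = 0.000682). In each of them library 68702 was the highest of the 6. In MG of the same tumours 16 members of this list were lower and 3 higher in GL261, beside 15.5% and 18.8% of all genes.

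Lpl, which frees fatty acids from lipoproteins, fell from 878, 224 and 183 CPM in GEMM to 55.9, 46.4 and 90.8 CPM in GL261 (log2 fold change -2.73 ± 0.53, adjusted p = 0.00174). Lpcat3, which builds polyunsaturated phospholipids, fell from 116, 100.2 and 78.4 CPM in GEMM to 42.8, 42.4 and 46.3 CPM in GL261 (log2 fold change -1.17 ± 0.16, adjusted p = 9.61e-05). Apoe was among the most abundant RNAs in both models, at 73658, 35018 and 22868 CPM in GEMM against 13460.1, 21448 and 10745 CPM in GL261 (log2 fold change -1.53 ± 0.44, adjusted p = 0.0213). Its call rested on single libraries, with adjusted p = 0.171 without 68702, 0.0739 without 80766, 0.0729 without 80769 and 0.289 without both 68702 and 80769. Nr1h3 itself, which encodes a liver X receptor, moved the other way, at 28.5, 24.5 and 16.3 CPM in GEMM against 40.6, 43.4 and 58.6 CPM in GL261 (log2 fold change 1.04 ± 0.31, adjusted p = 0.024), and lost the call without BB30101, BB30105 or 80769 (adjusted p from 0.0549 to 0.107). Apoe and Nr1h3 were named after their values were seen. Cholesterol synthesis and uptake genes had 7 of 24 members higher (29.2%, beside 10.2% of all genes) and 1 lower (4.17%, beside 9.46%). They were led by Lss, lanosterol synthase, at 6.36, 5.46 and 5.33 CPM in GEMM and 15.2, 19.2 and 16.5 CPM in GL261 (log2 fold change 1.57 ± 0.25, adjusted p = 0.000315). The higher count was 1 without both libraries that stood apart, 3 without 68702 or 80766, and 4 without BB30101 or 80769.

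Of 40 measured lysosomal proteases, hydrolases and membrane proteins 8 were lower in GL261 (20%, beside 9.46% of all genes) and 3 higher (7.50%, beside 10.2%). The aspartic protease gene Ctsd fell from 20538, 9516 and 11937 CPM in GEMM to 3403, 4684 and 4659 CPM in GL261 (log2 fold change -1.72 ± 0.34, adjusted p = 0.00198), and the cysteine protease gene Ctsf from 43.3, 32 and 50.5 CPM in GEMM to 11.5, 6.65 and 14.6 CPM in GL261 (log2 fold change -1.94 ± 0.28, adjusted p = 0.000151). No GL261 library reached a GEMM library in either gene. Cstb, which encodes an inhibitor of cathepsins, was higher, at 257, 319 and 234 CPM in GEMM against 389, 566 and 572 CPM in GL261 (log2 fold change 0.91 ± 0.19, adjusted p = 0.00244). Ctsl, a cysteine protease gene, gave 401, 525 and 521 CPM in GEMM against 527, 739 and 2936 CPM in GL261 (log2 fold change 1.54 ± 0.41, adjusted p = 0.014), and its call rested on 80769, with adjusted p = 0.262 without it and 0.0551 without 68702. The lower count was 5 without both libraries that stood apart, and 5 without any 1 of 68702, BB30101 or 80767. The higher count was 1 without 80769. In MG of the same tumours 28 members of this list were lower and 2 higher in GL261, beside 15.5% and 18.8% of all genes.

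Lysosomal promoters are shown for another motif, the E-box CACGTG, which reads the same on both strands and forms part of the site of the lysosome regulator TFEB. It was in 10 of 31 lysosomal genes with an entry (32.3%), in 4 of the 6 lower ones (66.7%), in 1 of the 2 higher ones (50%), and in 2187 of 27025 genes (8.09%). Among all genes higher in GL261 the share was 11.2%, among all lower genes 10.2% and among genes tested 11.1%. Capitals mark the E-box in Ctsd (chr7:142387778-142388077, minus strand) and Lamp1 (chr8:13158911-13159210, plus strand).
Ctsd: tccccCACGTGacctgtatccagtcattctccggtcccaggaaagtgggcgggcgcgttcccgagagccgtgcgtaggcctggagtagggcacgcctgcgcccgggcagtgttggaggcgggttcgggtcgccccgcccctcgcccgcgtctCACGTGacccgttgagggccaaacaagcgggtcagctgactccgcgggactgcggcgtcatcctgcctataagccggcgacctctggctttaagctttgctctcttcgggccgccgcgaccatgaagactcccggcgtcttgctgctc
Lamp1: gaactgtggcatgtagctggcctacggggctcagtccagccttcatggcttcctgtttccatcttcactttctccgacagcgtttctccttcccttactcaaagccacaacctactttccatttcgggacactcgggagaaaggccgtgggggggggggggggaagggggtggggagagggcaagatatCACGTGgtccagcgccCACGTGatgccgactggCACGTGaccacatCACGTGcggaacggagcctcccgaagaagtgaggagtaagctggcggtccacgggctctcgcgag
Ctsd holds 2 matches that begin 245 and 98 bases before its start, and Lamp1 holds 4. Lamp1, a membrane protein gene chosen for its promoter, gave 3182, 2492 and 1866 CPM in GEMM against 1758, 1631 and 1898 CPM in GL261 (log2 fold change -0.51 ± 0.16, adjusted p = 0.0315) and lost the call without 68702, BB30101, 80766 or 80767 (adjusted p from 0.0545 to 0.238).

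Disease-associated microglia genes, a programme driven by the lipid receptor Trem2, had 7 of 26 members lower (26.9%, beside 9.46% of all genes) and 2 higher (7.69%, beside 10.2%). Besides Lpl and Apoe, the protease inhibitor gene Cst7 fell from 39.5, 55.5 and 119 CPM in GEMM to 10.7, 18.1 and 30.1 CPM in GL261 (log2 fold change -1.86 ± 0.40, adjusted p = 0.00332). Trem2 was lower at 524, 291 and 305 CPM in GEMM against 164, 198 and 271 CPM in GL261 (log2 fold change -0.83 ± 0.24, adjusted p = 0.0216), a call that was lost without 68702 (adjusted p = 0.18), 80766 (0.109) or 80767 (0.0873). Gpnmb, a glycoprotein gene of lipid-laden macrophages, went the other way with 802, 366 and 112 CPM in GEMM and 1089.6, 1646 and 1043 CPM in GL261 (log2 fold change 1.56 ± 0.53, adjusted p = 0.0445). It was lost without any 1 library except 68702 (adjusted p from 0.0604 to 0.13). Trem2 and Gpnmb were named after their values were seen. The lower count was 4 without 68702 or 80766, and 6 without both 68702 and 80769. The higher count was 0 without 80769 and 1 without any other single library except 80767. In MG of the same tumours 15 members of this list were lower and 1 higher in GL261, beside 15.5% and 18.8% of all genes.

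Matrix remodelling genes moved in both directions, with 12 of 39 members higher and 5 lower, beside 10.2% and 9.46% of all genes. Without 68702 and 80769 the counts were 10 and 4, and without 80766 the lower count was 3. Timp1, an inhibitor of matrix metalloproteases, was at 1.84, 2.98 and 2.39 CPM in GEMM and 12.8, 26.9 and 69.1 CPM in GL261 (log2 fold change 3.91 ± 0.54, adjusted p = 9.7e-05). Adamts1, a protease that cleaves proteoglycans, was at 4.3, 3.95 and 19.8 CPM in GEMM and 66.6, 58.7 and 92.3 CPM in GL261 (log2 fold change 2.95 ± 0.50, adjusted p = 0.000527). Mmp13, a collagenase gene named after its values were seen, rose from 15.2, 54.5 and 14.9 CPM in GEMM to 877, 391 and 677 CPM in GL261 (log2 fold change 4.52 ± 1.01, adjusted p = 0.00491), and all 3 GL261 libraries were several fold above all GEMM libraries. Adam9, a membrane metalloprotease gene, rose from 199, 177 and 171 CPM in GEMM to 272, 309.8 and 358 CPM in GL261 (log2 fold change 0.78 ± 0.14, adjusted p = 0.00091). Timp3, another inhibitor, was at 2.06, 0.603 and 3.6 CPM in GEMM and 15.4, 11.9 and 30.7 CPM in GL261 (log2 fold change 3.21 ± 0.57, adjusted p = 0.00082). The TGF-beta list had 6 of 29 members higher (20.7%) and 3 lower (10.3%). There the latent TGF-beta binding protein Ltbp1 was at 0.723, 0.603 and 0.589 CPM in GEMM and 25.5, 38.5 and 6.92 CPM in GL261 (log2 fold change 5.20 ± 0.58, adjusted p = 1.85e-05). The higher count of that list was 3 without both libraries that stood apart. Of its 6 higher members 4 had a higher mean in GL261 MG than in GL261 BMDM. So did 4 of the 12 higher matrix genes, beside 77.7% of all higher genes.

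Complement and Fc receptor genes changed in both directions. C3, the central complement component, rose from 42.1, 65.8 and 72 CPM in GEMM to 443, 381 and 459 CPM in GL261 (log2 fold change 2.83 ± 0.39, adjusted p = 0.000106). C2 and Cfb, which form the convertases that cut C3, were higher too, C2 at 3.94, 2.88 and 7.59 CPM in GEMM and 14.1, 22.9 and 18.5 CPM in GL261 (log2 fold change 1.94 ± 0.35, adjusted p = 0.001) and Cfb, outside the rule, at 574, 365 and 460.4 CPM in GEMM and 2403, 2434 and 804 CPM in GL261 (log2 fold change 2.01 ± 0.42, adjusted p = 0.00305). Pros1, a bridge to the TAM receptors that clear dying cells, fell from 155, 124 and 195 CPM in GEMM to 60.6, 45.7 and 46.3 CPM in GL261 (log2 fold change -1.63 ± 0.23, adjusted p = 0.000128). In all, 6 of 28 complement and phagocytosis genes were higher (21.4%, beside 10.2% of all genes) and 4 lower (14.3%, beside 9.46%). Without 68702 and 80769 the counts were 6 and 5. Fcgr2b, the inhibitory Fc receptor for IgG, rose from 529, 629 and 442 CPM in GEMM to 1365, 1282 and 1615 CPM in GL261 (log2 fold change 1.41 ± 0.19, adjusted p = 6.26e-05), with no overlap between the models. Of 10 Fc receptor genes 2 were higher and 2 lower (20% each). The higher count was 1 without any 1 library except 80767, and the lower count was 1 without BB30101, 80766, 80767 or 80769.

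Of 23 C-type lectins and Siglecs 7 were lower in GL261 (30.4%, beside 9.46% of all genes) and 3 higher (13%, beside 10.2%). The 3 higher genes all belong to the Clec4a cluster, whose products restrain myeloid cells or pair with Fc gamma chains. Clec4a1 was at 7.56, 9.74 and 11 CPM in GEMM and 71.2, 61.9 and 81.1 CPM in GL261 (log2 fold change 2.92 ± 0.36, adjusted p = 3.29e-05), and Clec4a3 at 104, 168 and 96.5 CPM in GEMM and 398, 283 and 479 CPM in GL261 (log2 fold change 1.66 ± 0.30, adjusted p = 0.000973). Siglecg, an inhibitory receptor of B cells and dendritic cells, fell from 40.7, 71.4 and 60.7 CPM in GEMM to 1.16, 1.91 and 9.76 CPM in GL261 (log2 fold change -3.74 ± 0.78, adjusted p = 0.00291). Clec4a genes are close paralogs, and reads that fit more than one of them may have been split. The lower count was 4 without any 1 of 68702, 80766 or 80769, and 4 without both 68702 and 80769.

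**Figure D4:**
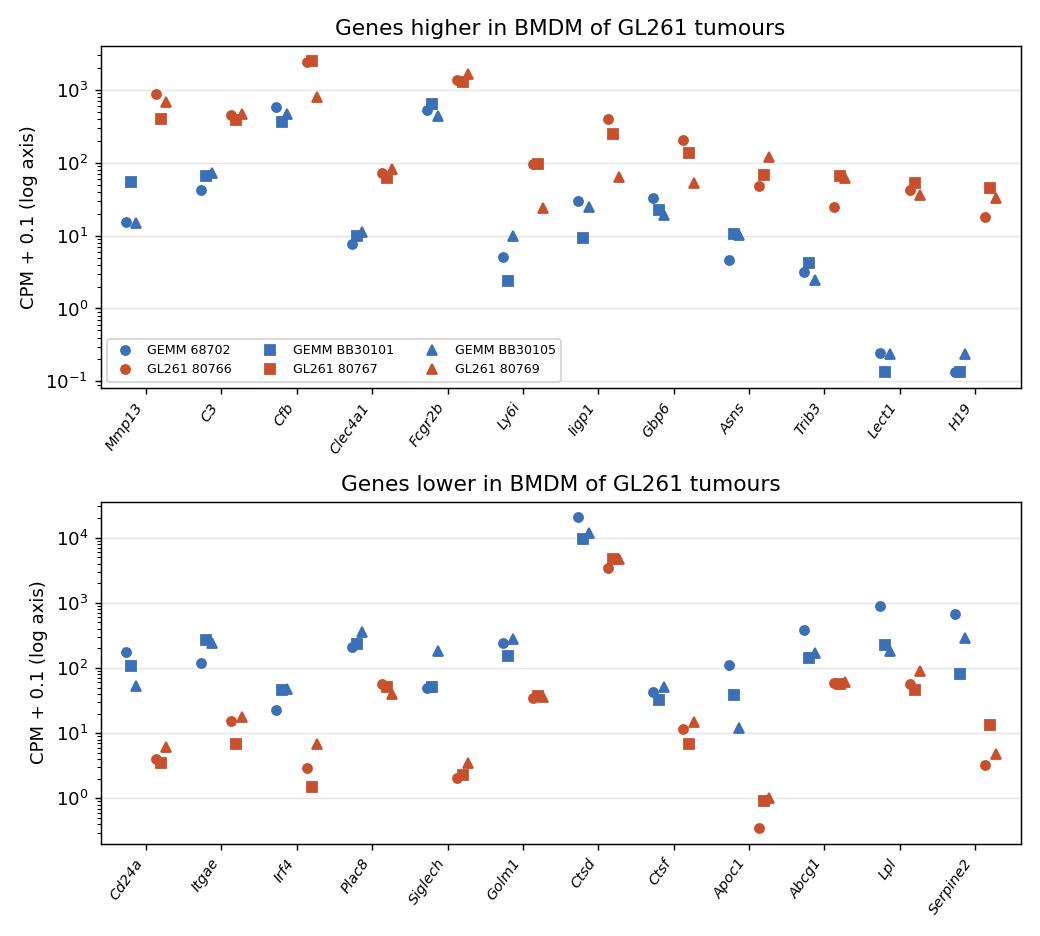
Level in each BMDM library (CPM plus 0.1, log axis) of 12 genes that were higher in GL261 (top) and 12 that were lower (bottom), GEMM in blue and GL261 in orange, with one symbol per tumour. The 3 GL261 libraries lie on one side of the 3 GEMM libraries for every gene drawn, with Lect1 and H19 near 0 in GEMM and Apoc1 near 0 in GL261.

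Among monocyte identity genes 6 of 33 were higher (18.2%, beside 10.2% of all genes) and 5 lower (15.2%, beside 9.46%), with a median log2 fold change of -0.14. Plac8, a gene of classical monocytes, fell from 213, 237 and 352 CPM in GEMM to 57.3, 50.2 and 40.4 CPM in GL261 (log2 fold change -2.44 ± 0.29, adjusted p = 2.94e-05), and Smpdl3a, a phosphodiesterase gene, from 473, 521 and 351 CPM in GEMM to 155, 164 and 203 CPM in GL261 (log2 fold change -1.36 ± 0.20, adjusted p = 0.000164). F13a1, a transglutaminase of monocytes and resident macrophages, rose from 24.3, 12.1 and 31.7 CPM in GEMM to 107, 203 and 95.3 CPM in GL261 (log2 fold change 2.57 ± 0.56, adjusted p = 0.00386). Ccr2, the receptor that brings monocytes into tissue, did not pass, at 228, 328 and 321 CPM in GEMM against 239, 89.3 and 127 CPM in GL261 (adjusted p = 0.164). Without both libraries that stood apart 3 members were higher and 4 lower, without 68702 there were 3 of each, and without 80769 the lower count was 3.

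Of 14 CC chemokines 3 were higher (21.4%, beside 10.2% of all genes) and 2 lower (14.3%, beside 9.46%). Of 13 CXC chemokines 1 was higher and 1 lower (7.69% each), shares under those of all genes. The higher CC count was 1 without 68702 or 80769. Ccl7, a ligand of Ccr2, rose from 24.5, 58.1 and 88.1 CPM in GEMM to 118, 208 and 168 CPM in GL261 (log2 fold change 1.53 ± 0.36, adjusted p = 0.00597). Ccl8, chosen after its values were seen, rested on 1 library, at 113, 227 and 142 CPM in GEMM and 503, 364 and 17596 CPM in GL261, and its adjusted p of 0.0235 became 0.429 without 80769 and 0.0876, 0.0659 and 0.0772 without 68702, BB30101 and BB30105. Cxcl14 fell from 18.9, 13.1 and 13.9 CPM in GEMM to 1.61, 3.09 and 1.86 CPM in GL261 (log2 fold change -2.80 ± 0.58, adjusted p = 0.00281). Of 31 receptors and adhesion genes 5 were lower (16.1%) and 1 higher (3.23%). Among the lower was the gut-homing integrin gene Itgb7, at 140.1, 264 and 229 CPM in GEMM and 42.5, 51.9 and 50.2 CPM in GL261 (log2 fold change -2.13 ± 0.47, adjusted p = 0.00404). That lower count was 3 without 68702 or without 80766, and 5 without both 68702 and 80769.

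Library 80769 also weighed on the alternative activation list, where 4 of 22 were higher (18.2%, beside 10.2% of all genes) and 2 lower (9.09%, beside 9.46%). Cd163, a scavenger receptor gene, was at 3.15, 4.35 and 7.79 CPM in GEMM and 0.403, 1.13 and 890.3 CPM in GL261 (log2 fold change 5.86 ± 2.01, adjusted p = 0.0492), and without 80769 its log2 fold change was -2.77 with adjusted p = 0.204. Its call was also lost without any 1 GEMM library (adjusted p from 0.107 to 0.146). Arg1, the arginase of alternatively activated macrophages, did not pass, at 201, 1996 and 220.4 CPM in GEMM against 597, 659 and 6265 CPM in GL261 (adjusted p = 0.444), nor did the mannose receptor gene Mrc1, at 183, 219 and 116 CPM in GEMM against 438, 273 and 2172 CPM in GL261 (adjusted p = 0.0711). The higher count was 1 without 80769, 1 without 68702 or BB30105, 2 without BB30101 and 1 without both libraries that stood apart. The lower count was 5 without 80769.

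Checkpoint and T cell suppression genes had 4 of 26 higher (15.4%, beside 10.2% of all genes) and 5 lower (19.2%, beside 9.46%). Cd276, a B7 family ligand also called B7-H3, rose from 11.9, 4.35 and 7.93 CPM in GEMM to 41.9, 54 and 28.1 CPM in GL261 (log2 fold change 2.36 ± 0.33, adjusted p = 0.000122). Havcr2, which encodes the receptor Tim-3, fell from 317, 395 and 320.2 CPM in GEMM to 209, 181 and 117 CPM in GL261 (log2 fold change -1.02 ± 0.23, adjusted p = 0.0046), and the costimulatory ligand gene Tnfsf9 from 47.5, 41.1 and 98.2 CPM in GEMM to 13.1, 24.3 and 12.3 CPM in GL261 (log2 fold change -1.91 ± 0.44, adjusted p = 0.00528). Cd274, which encodes PD-L1, did not pass, at 139.8, 138 and 123 CPM in GEMM against 272, 209 and 166 CPM in GL261 (adjusted p = 0.155). The higher count was 1 without both libraries that stood apart and 2 without 68702 or BB30105. The lower count was 3 without both and 2 without 68702 or 80767.

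Of 61 transcription factors 6 were higher (9.84%, beside 10.2% of all genes) and 7 lower (11.5%, beside 9.46%), shares near those of all genes. Without 68702 and 80769 the counts were 3 and 11. Without 80769 alone the counts were 3 and 11 as well, and without BB30101 3 were higher. Klf2, a factor of quiescence, fell from 161, 108 and 152 CPM in GEMM to 29, 35 and 36.6 CPM in GL261 (log2 fold change -2.06 ± 0.28, adjusted p = 8.45e-05), and Nfkb1, which encodes the NF-kappaB subunit p50, from 82.6, 116 and 115 CPM in GEMM to 23.5, 30.6 and 40.0 CPM in GL261 (log2 fold change -1.74 ± 0.29, adjusted p = 0.000527). Batf2, an interferon-inducible factor, rose from 6.62, 7 and 6.37 CPM in GEMM to 28.3, 25.4 and 11.1 CPM in GL261 (log2 fold change 1.69 ± 0.32, adjusted p = 0.00119). Among 22 enzymes of prostaglandins and leukotrienes 6 were lower (27.3%) and none higher, and 6 were lower without 68702 and 80769. Hpgd, which breaks down prostaglandins, fell from 219, 30.1 and 61.8 CPM in GEMM to 2.52, 3.35 and 1.63 CPM in GL261 (log2 fold change -5.37 ± 0.80, adjusted p = 0.000177), and Lta4h, which makes leukotriene B4, from 200.4, 186 and 148 CPM in GEMM to 71.7, 66.4 and 82.8 CPM in GL261 (log2 fold change -1.27 ± 0.28, adjusted p = 0.00381).

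Asns and Trib3, genes of the response to amino acid stress, were higher in GL261, and Atf4, which encodes a factor of that response, did not pass, at 129, 183 and 129.7 CPM in GEMM against 116, 139 and 188 CPM in GL261 (adjusted p = 0.987). Asns, asparagine synthetase and a target of that factor, was at 4.48, 10.3 and 10.1 CPM in GEMM and 48.1, 67.5 and 118 CPM in GL261 (log2 fold change 3.23 ± 0.59, adjusted p = 0.00101). Trib3, a pseudokinase of the same response, was at 3.07, 4.15 and 2.39 CPM in GEMM and 24.4, 66.3 and 61.1 CPM in GL261 (log2 fold change 3.98 ± 0.59, adjusted p = 0.000169). Herpud1, which helps to clear misfolded proteins from the endoplasmic reticulum, fell from 431, 493 and 608 CPM in GEMM to 256, 209.6 and 263 CPM in GL261 (log2 fold change -1.07 ± 0.21, adjusted p = 0.00169). The unfolded protein response list had 4 of 25 members higher (16%, beside 10.2% of all genes) and 2 lower (8%, beside 9.46%). Without 68702, without 80769 or without both, 2 of the members were higher. Asns and Trib3 stood higher still in MG of GL261 tumours, at 181 ± 145 and 109 ± 59.9 CPM (SD, n = 3). Of 38 cell cycle genes 7 were higher (18.4%) and none lower. They were led by Cdc6, which loads the replicative helicase, at 6.8, 4.89 and 8.83 CPM in GEMM and 24, 22.3 and 18.6 CPM in GL261 (log2 fold change 1.66 ± 0.32, adjusted p = 0.00167). The cell cycle count was 4 without 68702 or BB30101 and 1 without both libraries that stood apart, and 11 in the fit on the BMDM libraries alone, 15 in that on the 12 tumour libraries and 19 by limma-voom. The log2 fold change was positive for 36 of the 38. All 7 had a higher mean in MG than in BMDM of GL261 tumours, beside 77.7% of all higher genes. In MG 9 cell cycle genes were higher and 0 lower in GL261. None of 82 ribosomal protein genes passed in edgeR, where 4 were higher and 2 lower at an unadjusted p under 0.05, and DESeq2 called 1 higher. Of 73 oxidative phosphorylation subunits 2 were higher and 2 lower (2.74% each), and of 38 proteasome subunits 1 of each (2.63% each), shares under those of all genes. The lower oxidative phosphorylation count was 0 without 80767 and the higher 0 without both libraries that stood apart. The higher proteasome count was 0 without any 1 of 68702, BB30101, BB30105 or 80766, and the lower 0 without 80769.

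Of 30 heme and iron genes 4 were higher (13.3%, beside 10.2% of all genes) and 6 lower (20%, beside 9.46%). Among the latter was Gclm, a subunit of the enzyme that starts glutathione synthesis, at 97.8, 42 and 45.2 CPM in GEMM and 15.3, 19.8 and 23.1 CPM in GL261 (log2 fold change -1.67 ± 0.30, adjusted p = 0.000866). Without both libraries that stood apart these counts were 0 and 3, the higher count was 1 without 68702, BB30101, BB30105 or 80769, and the lower count was 2 without 68702 and 3 without 80766 or 80767. Of 20 purinergic receptors and ectonucleotidases 5 were lower (25%) and 1 higher (5%). The lower ones were led by P2rx1, an ATP-gated channel gene, at 33.5, 6.13 and 6.03 CPM in GEMM and 1.16, 0.721 and 0.743 CPM in GL261 (log2 fold change -4.11 ± 0.76, adjusted p = 0.00118). The lower count there was 3 without both libraries, BB30101 or 80766, and 2 without 80767. Of 18 genes of tryptophan and arginine metabolism 4 were lower (22.2%) and 1 higher (5.56%). The lower ones were led by Haao of the kynurenine pathway, at 16.6, 31.5 and 33.7 CPM in GEMM and 8.16, 8.35 and 4.93 CPM in GL261 (log2 fold change -1.93 ± 0.42, adjusted p = 0.0036). Their count was 2 without 80767.

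Of 37 growth and angiogenic factors 5 were higher (13.5%, beside 10.2% of all genes) and 4 lower (10.8%, beside 9.46%). Without both libraries that stood apart the counts were 1 and 3. The higher count was 2 without 68702 or 80769 and 3 without BB30101. Nrp2, a receptor for VEGF-C and semaphorins, rose from 28, 22 and 26.1 CPM in GEMM to 49.6, 60.9 and 104 CPM in GL261 (log2 fold change 1.49 ± 0.27, adjusted p = 0.00105), and Vegfa, the main angiogenic factor, did not pass, at 178, 202 and 169.5 CPM in GEMM against 229.9, 316 and 319 CPM in GL261 (adjusted p = 0.369). Of 36 immediate early genes, which cell dissociation can switch on, 2 were higher (5.56%) and 6 lower (16.7%), and the lower count was 3 without 80766. Of 18 glucocorticoid response genes 4 were higher (22.2%). That count was 1 without both libraries that stood apart or without any 1 GEMM library, and 2 without 80769. Of 36 glycolysis and hypoxia genes 3 were higher (8.33%), a share under that of all genes. That count was 6 without 80766 and 1 without BB30101, BB30105, 80767 or both libraries that stood apart. Of 28 inflammatory cytokines and mediators 1 was higher (3.57%) and 2 lower (7.14%). Of 25 Toll-like receptors and adaptors 1 was higher (4%) and 2 lower (8%). The shares of both lists lay under those of all genes. The lower cytokine count was 4 without 80769 and 1 without 68702, BB30105 or 80767, and the lower Toll-like receptor count was 0 without 68702 or 80769 and 1 without BB30101, 80766 or 80767.

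The genes with the highest fold changes, taken by the rule for named genes, were near 0 in GEMM. They were 4930550L24Rik, Pet2, Col9a1, H19, Lect1, Syt4, Krt8, Col9a2, Gjc3, Cd109, Cst6 and Has2. Lect1, a cartilage protein gene, was at 0.145, 0.0335 and 0.139 CPM in GEMM and 42.4, 52.7 and 35.8 CPM in GL261 (log2 fold change 8.63 ± 0.51, adjusted p = 1.4e-08). Gjc3, a connexin gene of oligodendrocytes, was at 1.08, 0.167 and 0.0693 CPM in GEMM and 52.8, 74.5 and 116 CPM in GL261 (log2 fold change 7.53 ± 0.73, adjusted p = 5.2e-06), and H19, an imprinted RNA of fetal tissue, at 0.0362, 0.0335 and 0.139 CPM in GEMM and 18, 44.1 and 32.5 CPM in GL261 (log2 fold change 8.71 ± 0.70, adjusted p = 1.54e-05). MG of GL261 tumours held more of each of the 12, Lect1 at 91.8 ± 27.1, Gjc3 at 173 ± 110.4 and H19 at 73.1 ± 17.8 CPM (SD, n = 3). Over the 1573 higher genes, 467 (29.7%) had means under 1 CPM in both GEMM lineages, and 426 of these 467 (91.2%) had a higher mean in GL261 MG than in GL261 BMDM. The same order held for 77.7% of all higher genes and for 55.5% of all genes tested. Genes so low in GEMM may have passed the count filter only through other libraries, those of GL261 MG included, which all genes tested need not. The shares therefore describe levels, and the order was not tested.

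Markers of oligodendrocyte precursors or glioma cells moved with these genes. The panel of 12 summed to 103, 19 and 137 CPM in GEMM BMDM and 236, 493 and 392 CPM in GL261 BMDM, with 7 higher, 1 lower and none at 0 in all 6 libraries. Sox10, a factor of that lineage, was at 6.33, 1.54 and 6.41 CPM in GEMM and 41, 98.1 and 83.2 CPM in GL261, and Olig2 at 3.22, 1.1 and 4.85 CPM in GEMM and 28.8, 61.6 and 33.1 CPM in GL261, both named after their values were seen. Pdgfra, a receptor of PDGF also named after its values were seen, did not pass, at 22.6, 1.97 and 22.3 CPM in GEMM against 3.83, 8.76 and 6.78 CPM in GL261 (adjusted p = 0.175). The panel's part in the genes near 0 in GEMM was not tested. Of the other panels of brain and vessel cells, oligodendrocyte markers had 4 of 9 higher and 0 lower, and astrocyte markers 3 of 9 higher and 1 lower. Neuron markers had 2 of 9 higher and 1 lower, pericyte or fibroblast markers 2 of 10 higher and 1 lower, and endothelial markers 2 of 10 higher and 0 lower. Of all genes tested 10.2% were higher and 9.46% lower.

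Genes with the largest falls by the same rule were BC018473, Retnlg, Gm8615, Expi, Apoc1, Cd5l, St6galnac2, Mcpt1, Apoc4, Serpine2, Hpgd and Siglech. BC018473 was at 173, 156 and 32.7 CPM in GEMM and had no count in the GL261 BMDM libraries, at least 2439.9-fold lower against a floor of 3 counts over the group (adjusted p = 0.00265). Retnlg, a resistin-like gene of neutrophils, was at 1748, 71.8 and 6.79 CPM in GEMM and 0, 0.361 and 0.139 CPM in GL261 (log2 fold change -11.80 ± 2.29, adjusted p = 0.00188). Cd5l, a lipid regulator of tissue macrophages, was at 217, 7.56 and 3.39 CPM in GEMM and 0.353, 1.65 and 1.77 CPM in GL261 (log2 fold change -5.91 ± 1.30, adjusted p = 0.00426). Library 68702 was by far the highest in both, and without it the call for Cd5l was lost (adjusted p = 0.0931). By limma-voom Retnlg (adjusted p = 0.223), BC018473 (0.0632), Expi (0.0674) and Cd5l did not pass. Cd5l did not pass in the fit on the BMDM libraries alone either. Serpine2, an inhibitor of thrombin-like proteases, fell from 675, 81.7 and 291 CPM in GEMM to 3.18, 13.3 and 4.65 CPM in GL261 (log2 fold change -5.63 ± 0.83, adjusted p = 0.000164). Mcpt1, a mast cell protease gene, lost its call without 68702, BB30101, 80766 or 80769 (adjusted p from 0.0622 to 0.0875). GL261 MG had no count of BC018473 either, beside a mean of 7.27 CPM in GEMM MG. Means also fell from GEMM MG to GL261 MG for Gm8615 (37.6 to 0.0986 CPM) and Expi (106 to 1.36 CPM). For Siglech the difference between lineages passed, at -3.67.

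MG of the same tumours were set beside these differences. In MG 2892 genes (18.8%) were higher and 2383 (15.5%) lower in GL261, and the 2 lineages share tumours, not libraries. Of the genes higher in BMDM 1253 were also higher in MG, which is 79.7% of the BMDM list and 43.3% of the MG list. Of the lower genes 819 were lower in both, 56.3% of the BMDM list and 34.4% of the MG list. Genes that passed in opposite directions numbered 17 higher in BMDM and 15 lower in BMDM.

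A difference between lineages was tested as an interaction, the BMDM difference minus the MG difference, and 250 of 15363 genes passed (1.63%), 93 positive (0.605%) and 157 negative (1.02%). Fitted on the 12 tumour libraries alone, with 14356 genes tested, 7 and 14 passed. With the tumour as a block in that fit, 105 and 192 passed. Without 1 library the counts ran from 33 (without BB30101 BMDM) to 280 (without 68702 BMDM) positive and from 49 (without 68702 MG) to 213 (without 80766 MG) negative. Of the 250 genes 108 also passed in BMDM and 200 in MG.

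Positive interactions that passed without each of the 12 tumour libraries in turn included a receptor, an enzyme and a kinase. Fcgr2b was higher in GL261 BMDM and stood at 747 ± 111 CPM in GEMM MG and 591 ± 104 CPM in GL261 MG (SD, n = 3), with an interaction of 1.75 ± 0.26 (adjusted p = 0.0028). Ch25h, which makes 25-hydroxycholesterol, was at 4.48, 4.92 and 17.6 CPM in GEMM BMDM and 47.3, 57.9 and 43.1 CPM in GL261 BMDM, and its MG log2 fold change was -1.12 ± 0.43 (adjusted p = 0.0506). The interaction for Ch25h was 3.58 ± 0.62 (adjusted p = 0.00795). On the 12 tumour libraries alone its adjusted p was 0.0778, and 0.0575 there with the tumour as a block. Sgk1, a kinase gene induced by glucocorticoids, was at 791, 672 and 749 CPM in GEMM BMDM and 1321, 1240.2 and 940.2 CPM in GL261 BMDM and fell in MG (log2 fold change -1.71 ± 0.22), with an interaction of 2.38 ± 0.31 (adjusted p = 0.0013). Its BMDM call alone was lost without any 1 library except 80769 (adjusted p from 0.0659 to 0.164). Ly6i, a Ly6 family gene, rose in BMDM from 4.92, 2.31 and 9.7 CPM in GEMM to 94.4, 95.1 and 23.8 CPM in GL261, beside 6.77 ± 2.46 CPM in GEMM MG and 9.52 ± 1.68 CPM in GL261 MG. Its interaction of 3.17 ± 0.77 (adjusted p = 0.0451) was less firm, being lost without 9 of the 12 libraries (adjusted p up to 0.114). On the 12 tumour libraries alone this interaction was lost too (adjusted p = 0.137, and 0.0541 with the tumour as a block).

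Among genes with a negative interaction, Kit, Ly75, Epcam and Tgtp1 were higher in MG of GL261 than of GEMM tumours. Kit, a growth factor receptor gene, gave 74.2, 137 and 146 against 39.4, 46.6 and 46.2 CPM in BMDM and 4.71 ± 3.66 and 57.6 ± 27.8 CPM in the 2 MG groups, with an interaction of -5.02 ± 0.92 (adjusted p = 0.0109). Ly75, an endocytic receptor gene of dendritic cells, gave 10.1, 28.2 and 27.1 against 9.32, 10.6 and 16.1 CPM in BMDM and 0.66 ± 0.269 and 12.2 ± 4.52 CPM in MG, with an interaction of -5.01 ± 0.78 (adjusted p = 0.00413). Neither passed in BMDM, and both rose in MG. Epcam, an adhesion gene, went opposite ways, from 72.8, 217 and 134 to 15.2, 44 and 24.3 CPM in BMDM and from 5.71 ± 7.23 to 48.2 ± 20.6 CPM in MG, with an interaction of -5.39 ± 0.99 (adjusted p = 0.0112). The BMDM fall of Epcam was lost without BB30101, 80766 or 80769 (adjusted p from 0.0635 to 0.0912). Tgtp1, an interferon-inducible GTPase gene, rose in both, by 1.35 ± 0.36 in BMDM and by 5.95 ± 0.46 in MG (interaction -4.60 ± 0.55, adjusted p = 0.000553), and its near-identical copy Tgtp2 can share its reads. The BMDM call for Tgtp1 was lost without 68702, BB30101 or 80766 (adjusted p from 0.062 to 0.074). Each of these 4 interactions passed without every single library and with the tumour as a block.

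Dendritic cell genes gave negative interactions too. Xcr1, the chemokine receptor of type 1 dendritic cells and named after its values were seen, was at 8.14, 20.6 and 26.1 CPM in GEMM BMDM and 3.78, 4.48 and 3.81 CPM in GL261 BMDM, with an interaction of -3.22 ± 0.60 (adjusted p = 0.0113) that passed without every single library. Irf4 gave 2.23 ± 0.835 CPM in GEMM MG and 1.36 ± 0.519 CPM in GL261 MG, with an interaction of -2.65 ± 0.62 (adjusted p = 0.0375), and Siglecg 3.03 ± 2.15 and 5.78 ± 3.71 CPM, with -4.64 ± 1.06 (adjusted p = 0.0355). Each of the latter 2 was lost without 8 of the 12 libraries (adjusted p up to 0.109 and 0.104). Both were also lost on the 12 tumour libraries alone (adjusted p = 0.172 and 0.123), and there with the tumour as a block (0.116 and 0.0903). Plac8 was at 12.1 ± 3.75 CPM in GEMM MG and 9.07 ± 4.71 CPM in GL261 MG, with an interaction of -2.02 ± 0.40 (adjusted p = 0.0167) that was lost without MG of 68702 or BB30105. The interferon-gamma genes Irgm1, Gbp6, Igtp and Iigp1 were higher in MG as well, with log2 fold changes of 2.17, 2.65, 2.30 and 2.58, and their interactions did not pass.

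**Figure D5:**
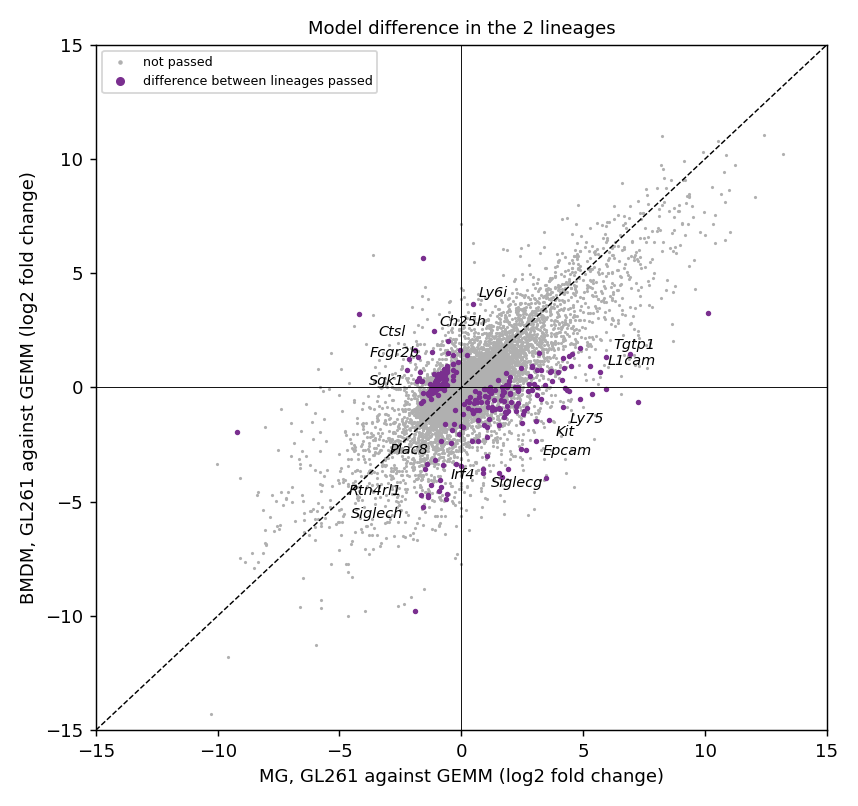
Log2 fold change of GL261 over GEMM in BMDM (vertical) against MG (horizontal) for the 15363 genes tested, with the 250 genes whose difference between lineages passed in purple and equal change on the dashed line. Ch25h, Ly6i and Fcgr2b lie above the line, and Epcam, Kit, Ly75 and Tgtp1 lie below it.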

How the data were processed

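Each library is a sorted population of a tumour, normal brain or blood. The deposited table holds raw counts per gene symbol, and per the submitters' processing notes the build was mm10 and the tools included STAR 2.5.0e, HTSeq, CASAVA 1.8 and DESeq2, with no role or order given. The sources used here do not give the annotation or the strand setting, so a gene and an overlapping or antisense neighbour cannot be told apart, and near-identical genes can share reads. Of 23329 symbols 21798 had counts, and 15363 passed edgeR's filter (a minimum count of 10 and a total of 15).

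From the deposited counts, edgeR 4.0.16 (R 4.3.3) with TMM factors and a robust quasi-likelihood fit over all 20 libraries in 6 groups (14 residual degrees of freedom) tested GL261 against GEMM in BMDM, the same in MG, and their difference, with p-values adjusted by Benjamini-Hochberg over all genes tested. A standard error is the size of the log2 fold change divided by the root of its F statistic. Levels are CPM on TMM-scaled totals, and a replicate is a tumour in the groups compared. The spread behind the p-values is shared over all 6 groups, so normal brain and blood libraries enter it too. Fitted on the BMDM libraries alone, 1058 genes were higher and 707 lower. BMDM and MG of the same number come from the same tumour, and their deviations from the group means correlated at 0.196 to 0.393 in all 6 pairs, with at most 0.0797 between other numbers.

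Genes were named by a rule: the 12 per direction with the largest fold changes among called genes at a group mean of 20 CPM or more without overlap, per list the 4 called members of smallest p, the sort's own genes and Itga4, and the 6 per direction with the largest interaction. List members that did not pass were singled out for their known roles, with their values known, and genes outside the rule are named as such. Some genes that it picks are not reported here. The gene lists, markers and members were chosen with earlier results of these data known, so no list's count is independent evidence. Among alternatives were DESeq2 1.42.0, limma 3.58.1 (voom), other scaling factors and filters, thinned counts, fewer libraries and a block for the tumour. The block was fitted on the 12 tumour libraries alone. The fitting steps were tested on simulated data. Promoters are RefSeq's for GRCm38.p6, 250 bases before to 50 bases from a start, and 23047 symbols matched RefSeq, 2299 by an older name. Figures were drawn with matplotlib 3.10.9.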

Additional observations from a re-analysis of the deposited data

Results flagged for a closer look

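The following genes had a difference between the models that itself differed between BMDM and MG in edgeR's interaction test at an adjusted p under 0.05. Values are the BMDM minus the MG log2 fold change of GL261 over GEMM. Among genes of phagocytes and lysosomes the value was 1.75 for Fcgr2b, 1.49 for Fcgr3, 1.69 for Clec4a3, 1.43 for Cd68 and 2.73 for Ctsl. Ch25h gave 3.58, Ly6i 3.17, Sgk1 2.38, Tmem51 2.14, Nrp2 2.04, Plaur 1.35, Adam9 1.11 and Dhcr7 0.86.

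On the negative side the value was -5.39 for Epcam, -5.05 for L1cam, -5.02 for Kit, -5.01 for Ly75, -4.64 for Siglecg, -4.60 for Tgtp1 and -4.04 for Bmp2. Siglech gave -3.67, Rtn4rl1 -3.32, Xcr1 -3.22, Crybb1 -3.15, Irf4 -2.65, Ciita -2.33 and Plac8 -2.02.

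Of these 27 genes Adam9, Ch25h, Epcam, Fcgr2b, Fcgr3, Kit, L1cam, Ly75, Nrp2, Rtn4rl1, Sgk1, Tgtp1 and Xcr1 passed without each of the 12 tumour libraries in turn. With the tumour as a block, fitted on the 12 tumour libraries, all of these 13 passed except Ch25h and Rtn4rl1. In the fit on the same libraries without the block only Fcgr2b (adjusted p = 0.0489), Kit (0.0295), Ly75 (0.0291), Sgk1 (0.0295) and Tgtp1 (0.0291) passed. Ch25h (0.0778) and Rtn4rl1 (0.096) did not pass there either.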

How the results depend on the processing

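In BMDM the counts of higher and lower genes stayed within 1.5 times of the 1573 and 1454 reported under DESeq2, limma-voom, other scaling factors, other filters and thinned counts. Exceptions were 707 lower genes in the fit on the BMDM libraries alone, 825 lower genes at 2-fold or more, and 874 higher genes without libraries 68702 and 80769. Without 1 library the higher count ran from 1045 to 1462 and the lower count from 822 to 1376. In MG 1021 genes were lower at 2-fold or more, and without 1 library 1811 to 2796 were higher and 1940 to 2570 lower.

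The interaction counts of 93 and 157 became 373 and 435 in DESeq2, 162 positive in limma-voom, 43 positive with no filter, and 7 and 14 in the fit on the 12 tumour libraries. Without 1 library they ran from 33 to 280 and from 49 to 213. With the tumour as a replicate block, also fitted on the 12 tumour libraries alone, they were 105 and 192. Of these 49 and 95 were among those reported. In the block fit 10 interactions given above did not pass: Ch25h (adjusted p = 0.0575), Ly6i (0.0541), Dhcr7 (0.0549), Ctsl (0.0656), Bmp2 (0.0775), Siglecg (0.0903), Rtn4rl1 (0.0956), Crybb1 (0.107), Siglech (0.114) and Irf4 (0.116). None of these 10 passed on the 12 tumour libraries without the block either. Another 6 that did not pass as reported passed in the block fit: Timp1 (0.0123), Cd74 (0.0261), Lta4h (0.0424), H2-Ab1 (0.0456), Apoc4 (0.0458) and C3 (0.0491). Calls of the other named genes were the same in the block fit as reported. The cause was not tested.

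Without 1 library the BMDM difference of Cd163 ran from -2.77 (without 80769) to 6.46 and that of Chi3l4 from -2.28 (without 80769) to 11.57, and without both 68702 and 80769 they were -3.04 and -1.93. No other named gene that passed changed sign under any alternative run. Other scaling factors gave 54.4% (RLE) and 56.8% (upper quartile) of BMDM calls as higher, against 52.0% as reported. With 3 tumours per model, differences smaller than the spread between tumours could not be detected, and values under 1 CPM rest on few counts.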
